A study of Homo sapiens with 60 samples.

Results

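Retinoic acid is made inside cells from vitamin A and changes transcription through nuclear receptors. The genes described are 9 of the 60675 in the deposited table, picked by symbol. They are ALDH1A1, ALDH1A2 and ALDH1A3, the retinaldehyde dehydrogenases that make retinoic acid; DHRS3, which returns retinaldehyde to retinol; CRABP2, a carrier of retinoic acid; and the nuclear receptors RARA, RARB, RARG and RXRA. They were picked with earlier results of these libraries in view, in particular the differences between doses and from vehicle. Those differences are therefore given as values, and no test of them is used as evidence.

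The cells were SW1783, a human astrocytoma line, grown in Leibovitz's L-15 medium and exposed for 24 h to a herbal extract or to the vehicle, dimethyl sulfoxide. The labels give the vehicle as 0.1% and the design text as 2%, so its concentration cannot be told. No dimethyl sulfoxide percentage is given in the labels of the extract libraries, so solvent may differ too in comparisons with vehicle. Each extract had a high, a medium and a low dose; the high dose was 500 µg/mL or, where that was lower, the extract's IC20, and the others were dilutions of it. The decoctions Yijin-tang (3 libraries at each dose) and Soshiho-tang (2 libraries, numbered 2 and 3) were extracted in water and used at doses of 500, 100 and 20 µg/mL. Single herbs were extracted in ethanol. Doses of 500, 100 and 20 µg/mL were used for Zizyphi Semen, Longan Arillus and Liriopis seu Ophiopogonis Tuber, while Schisandrae Fructus was used at 310, 62 or 12.4 µg/mL; each of these 12 groups had 3 libraries, as did vehicle. Groups of 1 library came from Aucklandiae Radix (160, 32 or 6.4 µg/mL) and from Polygalae Radix (30, 6 or 1.2 µg/mL). All groups share the cell line and the medium.

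Retinol enters cells through the membrane receptor STRA6 and is oxidised to retinaldehyde by retinol dehydrogenases such as RDH10. An ALDH1A enzyme then oxidises retinaldehyde irreversibly to retinoic acid, which CRABP2 carries to the nucleus and CYP26 enzymes break down. Retinoic acid binds RAR proteins, which pair with RXR proteins on direct repeats of a short half-site. RARB, CYP26 genes and DHRS3 are widely used as read-outs of that binding, and ALDH1A3 is a known marker of mesenchymal glioma cells.

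The promoters are shown because the readings below turn on these genes: ALDH1A3 has the largest difference among replicated groups, DHRS3 the largest in the negative direction, and RARB is the textbook direct target. Each is the 250 bases before a RefSeq transcript start in GRCh38.p14, 5′ to 3′ on the gene's strand, with matches on either strand in capitals. Capitals mark the receptor half-site AGGTCA, its variant AGTTCA, the further variants GGGTCA and also GGTTCA, and the dioxin response element core, which is GCGTG. No half-site overlaps a core in these stretches. RefSeq promoters were found for all 9 genes, 18 in all. ALDH1A3 promoter 1 lies at chr15:100879581-100879830 on the plus strand, RARB promoter 1 at chr3:25428013-25428262 on the plus strand and DHRS3 promoter 1 at chr1:12618211-12618460 on the minus strand.
ALDH1A3 promoter 1: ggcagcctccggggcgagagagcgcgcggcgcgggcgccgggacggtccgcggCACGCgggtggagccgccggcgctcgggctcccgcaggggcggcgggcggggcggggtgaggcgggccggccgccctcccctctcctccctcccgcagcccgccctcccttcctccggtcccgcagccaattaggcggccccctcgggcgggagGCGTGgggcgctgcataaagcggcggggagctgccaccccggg
RARB promoter 1: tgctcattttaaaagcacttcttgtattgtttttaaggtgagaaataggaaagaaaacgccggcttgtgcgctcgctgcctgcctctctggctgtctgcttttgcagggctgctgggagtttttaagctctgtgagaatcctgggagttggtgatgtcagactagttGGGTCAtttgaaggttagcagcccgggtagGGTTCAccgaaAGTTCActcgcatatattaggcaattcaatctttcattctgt
DHRS3 promoter 1: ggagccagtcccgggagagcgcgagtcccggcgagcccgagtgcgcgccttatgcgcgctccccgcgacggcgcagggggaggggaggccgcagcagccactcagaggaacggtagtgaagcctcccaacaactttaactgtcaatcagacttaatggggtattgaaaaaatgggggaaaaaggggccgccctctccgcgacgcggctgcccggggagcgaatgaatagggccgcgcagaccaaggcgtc
The ALDH1A3 stretch held no half-site and had GCGTG on the minus strand, its first base 197 bases before the start, and on the plus strand 43 bases before. The RARB stretch held 3 half-sites, with first bases 83, 53 and 42 bases before the start. The last 2 of them form a direct repeat with 5 bases between (DR5), the spacing bound by RAR and RXR. The DHRS3 stretch held none of these motifs. A longer window, from 250 bases before to 50 after the start, had GCGTG on the minus strand at base 6 after the start; DHRS3 promoters 2 and 3, not printed, each had 1 half-site, 172 and 171 bases before their starts. Among 35116 RefSeq windows of that longer size, 0.0883% held such a DR5 made of these half-sites, 38.6% at least 1 half-site and 36.5% GCGTG. A match describes the letters and shows no binding.

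Libraries held 18.73 to 35.52 M counts (median 25.79 M). Levels are CPM, read counts scaled to library size with trimmed mean of M values factors. The first part of the library names splits the libraries into 5 sets, and vehicle makes up a set of its own, so extract and library set cannot be told apart in any comparison with vehicle. A low dose lay in the same set as its high dose. Of 10 astroglial markers, 5 had a median of at least 1 CPM (VIM, CD44, SOX9, SLC1A3 and NES), while GFAP (at most 0.313 CPM), AQP4, S100B, SLC1A2 and ALDH1L1 lay near 0 in every library. Of the markers of other cell types, neurons had 2 of 5 at that level (SNAP25 and SYT1), leukocytes 2 of 5 (PTPRC and CSF1R), oligodendrocytes 1 of 5 (MBP), endothelium 0 of 3 and epithelium 0 of 3. The single library of Polygalae Radix at high dose stood apart: 23.8% of the genes tested lay at least 2-fold from the low dose of that extract, against 14.4% for Aucklandiae Radix at high dose. Nothing in the sources says that libraries of a group came from separate cultures, so the p-values rest on library-to-library spread that may be technical.

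Of the 3 retinaldehyde dehydrogenases, SW1783 cells expressed ALDH1A3 almost alone. ALDH1A3 lies on chr15:100877714-100916626, plus strand, in GENCODE release 29 on GRCh38. In vehicle it reached 101 ± 1.18 CPM per kb of exon (SD, n = 3), against 0.0199 for ALDH1A2 and 0.00579 for ALDH1A1. On the same scale RARA reached 22, DHRS3 9.56, RXRA 7.21, RARG 7.04, RARB 4.64 and CRABP2 3.02. ALDH1A1, at chr9:72900662-73080442 on the minus strand, had 75 counts over all 60 libraries, at most 10 in one, and none in 27. ALDH1A2, at chr15:57953424-58497866 on the minus strand, had 264 counts and at most 11 in one library. These genes did not pass the filter on low counts. The other 7 passed, and every count of the chosen genes below is out of those 7. Counts from other lists give their own totals.

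ALDH1A3 was highest after Schisandrae Fructus at high dose and lowest, among replicated groups, after Soshiho-tang at medium dose. The 3 vehicle libraries held 585, 574 and 586 CPM. Schisandrae Fructus gave 1337, 1300 and 1306 CPM at high dose, 731, 743 and 703 CPM at medium dose and 617, 594 and 588 CPM at low dose. The 3 doses did not overlap, and the low dose lay just above vehicle. The high dose was 2.18-fold the low dose, a log2 difference of 1.13 ± 0.04 (SE, 3 against 3 libraries), and the medium dose differed from the low dose by 0.27 ± 0.04. In bulk RNA, a change in the share of cells that make a transcript and a change in transcript per cell cannot be told apart.

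Soshiho-tang gave the opposite picture, with every library below every vehicle library and no rank by dose. It held 432 and 466 CPM at high dose, 337 and 347 CPM at medium dose and 420 and 409 CPM at low dose. The medium dose lay below both others, with a log2 difference from the low dose of -0.28 ± 0.05 (2 against 2 libraries). The high dose differed from the low dose by 0.11 ± 0.05. Leaving out any of the 4 libraries (medium-dose 2 or 3, low-dose 2 or 3) kept the medium-dose difference between -0.30 and -0.26 but ended its call, and the high dose became called (0.17) without high-dose library 2. Yijin-tang, the other water extract, held 636, 634 and 654 CPM at high dose, 545, 538 and 553 CPM at medium dose and 534, 541 and 550 CPM at low dose. Its medium and low doses overlapped, and both lay below the high dose, by a log2 difference of 0.24 ± 0.04 from low to high.

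The remaining replicated ethanol extracts moved ALDH1A3 less than Schisandrae Fructus did. Longan Arillus held 775, 794 and 815 CPM at high dose, 629, 591 and 595 CPM at medium dose and 595, 602 and 603 CPM at low dose. Zizyphi Semen held 720.0, 650.0 and 698 CPM at high dose, 565, 563 and 549 CPM at medium dose and 546, 532 and 546 CPM at low dose. In both, all high-dose libraries lay above the other doses, with log2 differences from the low dose of 0.40 ± 0.04 and 0.34 ± 0.04. Liriopis seu Ophiopogonis Tuber held 674, 653 and 621 CPM at high dose, 625, 636 and 597 CPM at medium dose and 640.2, 587 and 566 CPM at low dose. Its 3 doses overlapped (high against low 0.12 ± 0.04). Ordered by mean, the 19 replicated groups form 18 neighbouring pairs, and 6 of those pairs did not overlap. At the bottom these gaps ran from Soshiho-tang medium to low, to high and then to Zizyphi Semen low. A further gap lay between Zizyphi Semen medium and vehicle. At the top they ran from Schisandrae Fructus medium to Longan Arillus high and to Schisandrae Fructus high. Some gaps were narrow: 419.5 to 431.9 CPM between Soshiho-tang low and high, and 565.2 to 573.6 CPM between Zizyphi Semen medium and vehicle. Neither of those differences was called, so their order is not resolved. All other neighbours overlapped, and their order is not resolved either.

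**Figure D1:**
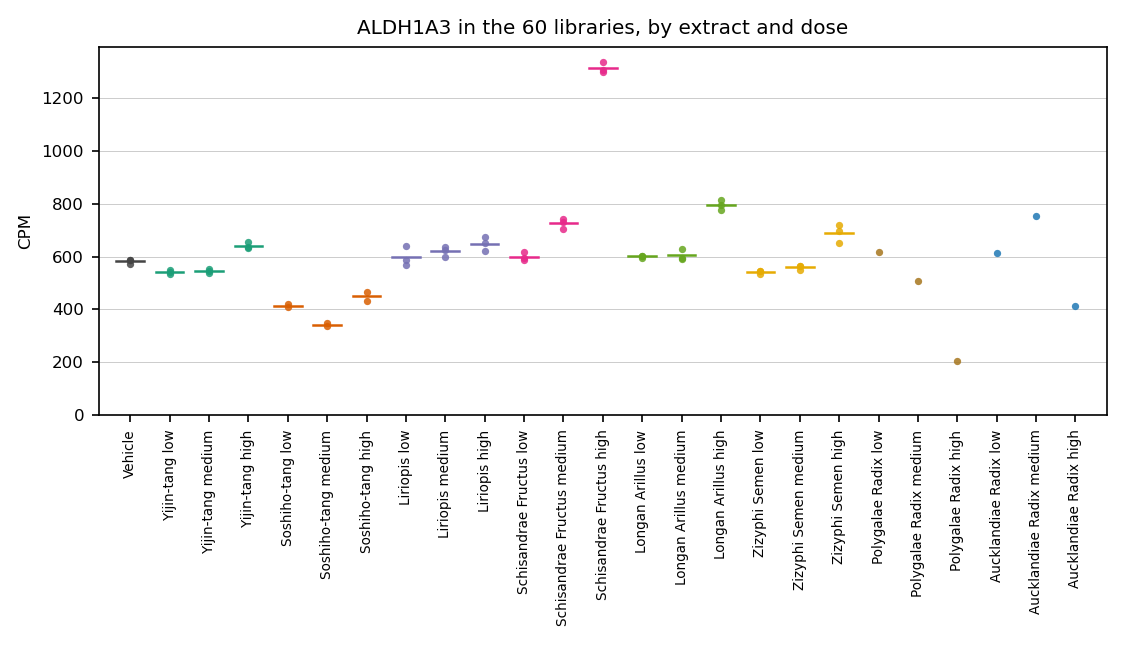
ALDH1A3 in CPM (vertical axis, from 0) for each of the 60 libraries, grouped by extract and dose along the horizontal axis; points are libraries and bars are means of the groups with more than 1 library. The 3 high-dose Schisandrae Fructus libraries sit at 1300 to 1337 CPM, all Soshiho-tang libraries sit below the vehicle libraries, and the single Polygalae Radix high-dose library is the lowest point.

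The 2 extracts with 1 library per dose held the lowest level of all and no common order, and allow no test. ALDH1A3 after Polygalae Radix was 204.9 CPM at high dose (95% exact Poisson interval 199.9 to 209.9, counting error only), 508 at medium dose and 616 at low dose. After Aucklandiae Radix it was 414, 753 and 614 CPM at high, medium and low dose. The first was lower in each library of a higher dose, while the second was highest at the medium dose.

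DHRS3 (chr1:12567910-12617731, minus strand) reduces retinaldehyde back to retinol and is itself induced by retinoic acid. It moved with ALDH1A3 after Schisandrae Fructus. After Soshiho-tang DHRS3 lay below vehicle at the high dose and, without a call, at the medium dose, but not at the low dose. Vehicle libraries held 29.15, 29.03 and 28.87 CPM. Schisandrae Fructus held 45.7, 50.6 and 50.6 CPM at high dose, 35.4, 40.3 and 36.3 CPM at medium dose and 34.6, 36.2 and 34.3 CPM at low dose, a log2 difference of 0.48 ± 0.08 from low to high. The high-dose libraries lay above all others of that extract, while medium and low doses overlapped. Soshiho-tang held 17.5 and 16.7 CPM at high dose, 27.2 and 23.3 CPM at medium dose and 29.9 and 29.5 CPM at low dose, with a log2 difference of -0.80 ± 0.11 from low to high. Its 3 doses did not overlap. In the other 4 replicated extracts the high dose overlapped the low dose, with log2 differences from -0.10 (Yijin-tang) to 0.01 (Longan Arillus).

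In the Polygalae Radix libraries DHRS3 and ALDH1A3 ran in opposite orders of dose. In the single Polygalae Radix libraries it was 99.3 CPM at high dose (95% exact Poisson interval 95.8 to 102.8), 57.4 at medium dose and 38.5 at low dose, the reverse of the order of ALDH1A3. In the Aucklandiae Radix libraries it was 31.2, 40.2 and 35.4 CPM in the same order of doses. Over the 60 libraries the Pearson correlation of log2 CPM of DHRS3 with ALDH1A3 was 0.16, a description only, since libraries of a group share their treatment. It was -0.15 over the 25 group means and 0.07 within library sets, so its sign depended on the weighting.

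CRABP2 (chr1:156699606-156705816, minus strand), the carrier that hands retinoic acid to its receptors, was the least abundant of the 7 genes, at 1.52 to 6.52 CPM over the 60 libraries. Vehicle held 3.27, 2.79 and 3.92 CPM. Schisandrae Fructus held 2.74, 3.00 and 3.51 CPM at high dose and 3.81, 3.77 and 4.73 CPM at low dose. The high dose lay below the low dose in each library, by a log2 difference of -0.41 ± 0.15 that was no longer called without high-dose library 1 (-0.33), high-dose library 2 (-0.39) or low-dose library 3 (-0.30). Yijin-tang (-0.41 ± 0.16) and Soshiho-tang (-0.41 ± 0.19) differed as much from low to high dose but were not called. The ends of its range were the single high-dose libraries: 1.52 CPM after Polygalae Radix (95% exact Poisson interval 1.12 to 2.02) and 6.52 after Aucklandiae Radix (5.56 to 7.61).

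The 4 receptors were lower at high than at low dose of Soshiho-tang and Schisandrae Fructus, and did not differ beyond the test's threshold in Liriopis seu Ophiopogonis Tuber, Longan Arillus or Zizyphi Semen. RARA (chr17:40309192-40357643, plus strand), the most widely expressed retinoic acid receptor, held 83.8 and 74.2 CPM at the high dose of Soshiho-tang and 99.7 and 96.5 CPM at its low dose. RARG (chr12:53210567-53232980, minus strand), a receptor best known from skin and cartilage, held 25.8 and 27.7 CPM against 36.5 and 37.0 CPM. Groups did not overlap for either gene, with log2 differences of -0.31 and -0.46 ± 0.07. RXRA (chr9:134317098-134440585, plus strand), the shared partner of RAR and several other nuclear receptors, held 54.9 and 55.3 CPM at high and 73.6 and 68.5 CPM at low dose (-0.37 ± 0.06).

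RARB (chr3:25174332-25597932, plus strand), the gene with the direct repeat printed above and a retinoic acid receptor itself, was lower at the high dose of both extracts. Its promoters 2, 3 and 4, not printed, held no such repeat, and the counts do not separate transcript starts. Vehicle libraries held 16.3, 17.6 and 17.6 CPM. Schisandrae Fructus held 14.3, 14.0 and 13.3 CPM at high dose and 16.7, 15.5 and 17.3 CPM at low dose (-0.25 ± 0.07). Soshiho-tang held 10.6 and 11.8 CPM at high dose and 15.7 and 16.1 CPM at low dose (-0.51 ± 0.09). Neither pair of groups overlapped, and Yijin-tang differed by 0.01.

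In Schisandrae Fructus the other receptors also lay below the low dose in all 3 high-dose libraries. RARA held 88.4, 94.1 and 95.9 CPM against 100.0, 107.2 and 108.5 CPM, RARG 28.5, 30.4 and 29.4 CPM against 34.8, 36.9 and 36.3 CPM, and RXRA 64.9, 62.5 and 58.9 CPM against 70.0, 76.1 and 78.1 CPM. The log2 differences were -0.19, -0.29 ± 0.06 and -0.27 ± 0.05. In Yijin-tang the same genes differed by -0.23, -0.20 and -0.24 ± 0.05: RARA held 93.3, 89.3 and 84.3 CPM at high dose and 104.3, 103.9 and 104.5 CPM at low dose, and RXRA 66.5, 64.9 and 62.0 CPM against 77.0, 77.4 and 74.0 CPM. Calls of RARA ended without high-dose library 3 of Soshiho-tang (-0.23), high-dose library 1 of Schisandrae Fructus (-0.15) or high-dose library 3 of Yijin-tang (-0.19). That of RARG in Yijin-tang ended without low-dose library 1 or 2 (-0.20 each) or high-dose library 3 (-0.14), and with no low-count filter (-0.19).

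In the single libraries the receptors went both ways. Polygalae Radix at high dose held 116 CPM of RXRA against 67.6 at low dose, 1.72-fold, and 129 CPM of RARA against 97.7. Its RARG (35.14 against 40.84 CPM) and RARB (15.59 against 16.56 CPM) were lower. Aucklandiae Radix at high dose held 50.2 CPM of RARG against 38.3 at low dose, and 92.6 CPM of RARA against 126. Its RARB (13.97 against 14.25 CPM) and RXRA (70.58 against 71.35 CPM) were slightly lower. At least 2-fold from the low dose lay 3 of 7 genes after Polygalae Radix (ALDH1A3 and CRABP2 lower, DHRS3 higher), where the share over all genes was 23.8%, and 0 of 7 after Aucklandiae Radix, where it was 14.4%.

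**Figure D2:**
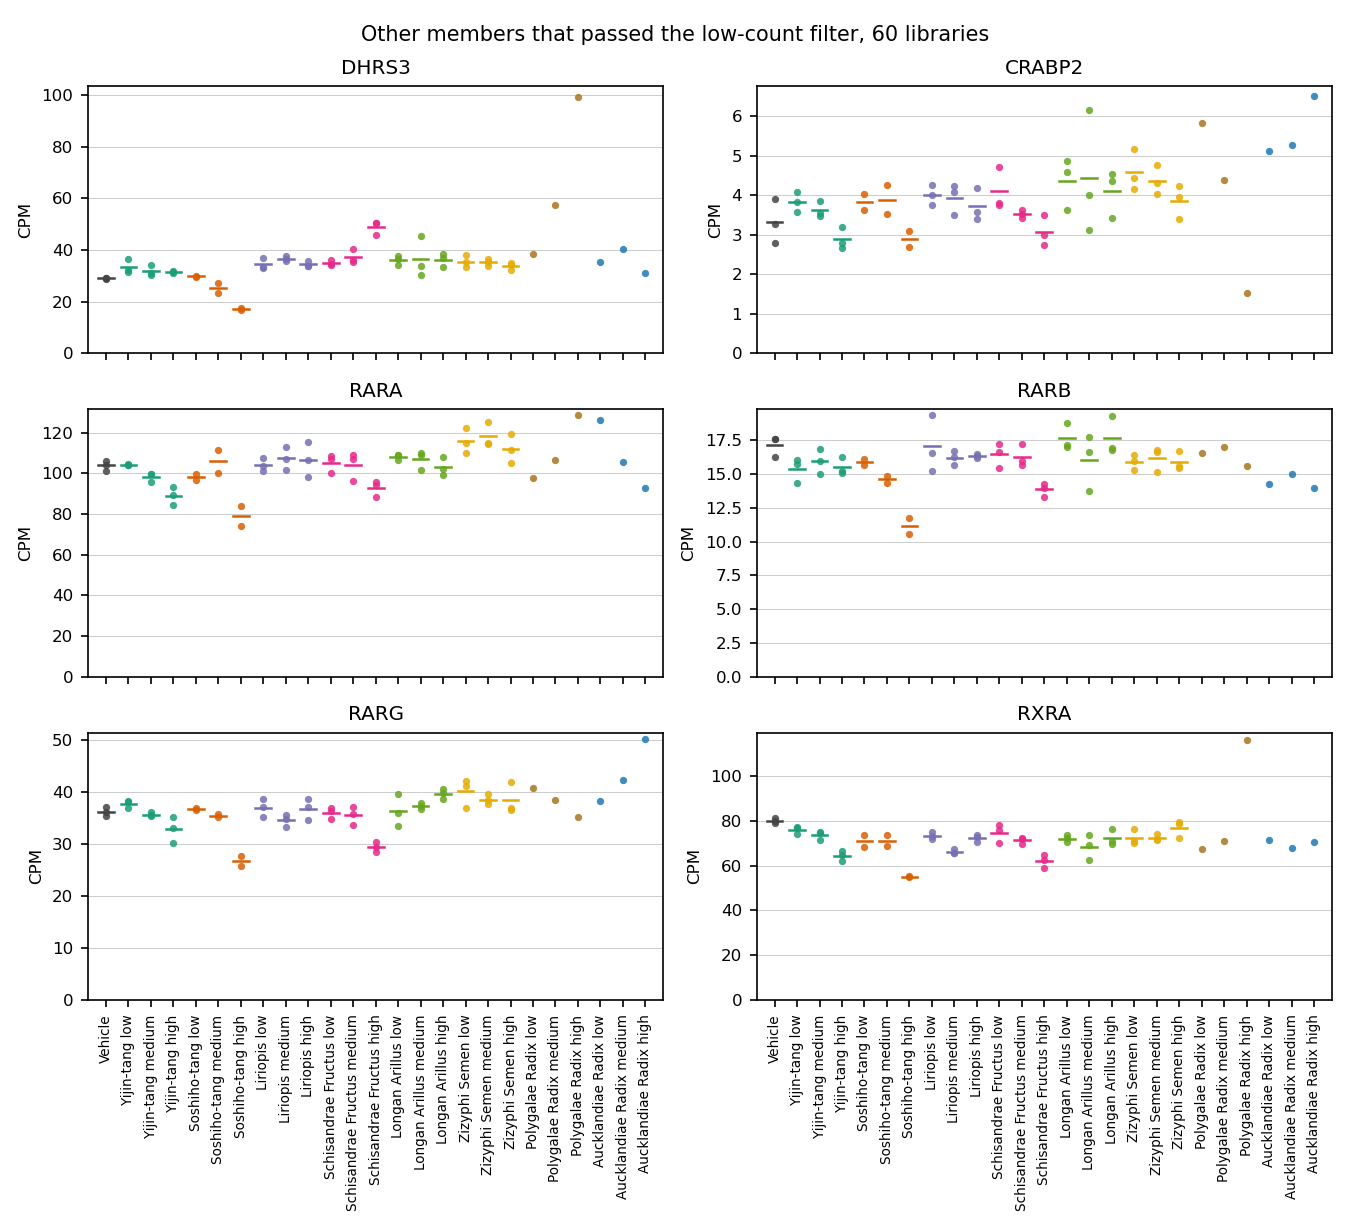
DHRS3, CRABP2, RARA, RARB, RARG and RXRA in CPM (vertical axes, each from 0) for the 60 libraries in the order of the ALDH1A3 plot; points are libraries and bars are group means. DHRS3 is lowest after Soshiho-tang at high dose (16.7 and 17.5 CPM) and highest in the single Polygalae Radix high-dose library (99.3 CPM).

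Counts of these genes that passed the threshold (edgeR's quasi-likelihood test, Benjamini-Hochberg adjusted p under 0.05) are set beside the share of all 17851 genes tested, and nothing is read from them because the comparisons were part of the choice. From low to high dose they were 4 of 7 for Yijin-tang (7% of all genes), 5 for Soshiho-tang (18.6%; 9.92% higher and 8.66% lower), 0 for Liriopis seu Ophiopogonis Tuber (0%; 1 at an unadjusted p under 0.05), 7 for Schisandrae Fructus (45.9%; 22.3% higher and 23.6% lower), 1 for Longan Arillus (0.936%) and 1 for Zizyphi Semen (5.78%). All 5 in Soshiho-tang were lower. In Schisandrae Fructus ALDH1A3 and DHRS3 were higher and the other 5 lower. The median log2 difference over the 7 was -0.20 for Yijin-tang, -0.41 for Soshiho-tang and -0.25 for Schisandrae Fructus, where the median over all genes was 0. From low to medium dose 1 was called in Soshiho-tang (0.0112% of all genes) and 1 in Schisandrae Fructus (0.0392%), ALDH1A3 in each case. None was called in Yijin-tang (0.0224%; 0 at an unadjusted p under 0.05), Liriopis seu Ophiopogonis Tuber (0%; 1), Longan Arillus (0%; 0) or Zizyphi Semen (0%; 0).

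Comparisons with vehicle share the same 3 vehicle libraries. For ALDH1A3 the log2 differences from vehicle at high, medium and low dose were 1.17, 0.31 and 0.04 after Schisandrae Fructus and -0.38, -0.77 and -0.50 after Soshiho-tang, each ± 0.04. For Longan Arillus they were 0.44, 0.06 and 0.04, for Zizyphi Semen 0.24, -0.07 and -0.11, for Yijin-tang 0.13, -0.10 and -0.11, and for Liriopis seu Ophiopogonis Tuber 0.15, 0.08 and 0.03. Soshiho-tang thus lay below vehicle already at its low dose, and Schisandrae Fructus above it chiefly at its high dose. DHRS3 was low in vehicle itself, whose 3 libraries spanned only 28.87 to 29.15 CPM. In 16 of the 18 other replicated groups, low doses included, every library lay above every vehicle library, and in 2 every library lay below. Of these 18 comparisons, 8 were called higher and 1 lower. The share of all genes that did not overlap vehicle was not counted. DHRS3 differed from vehicle by -0.77 ± 0.10 at the high dose of Soshiho-tang and by 0.75 ± 0.08 at that of Schisandrae Fructus. Among replicated groups RXRA was highest in vehicle, at 79.8, 78.9 and 81.2 CPM, and its log2 difference at high dose was -0.32 in Yijin-tang, -0.55 in Soshiho-tang and -0.37 in Schisandrae Fructus.

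At high dose against vehicle, 3 of 7 genes were called for Yijin-tang (19.8% of all genes), 6 for Soshiho-tang (30.3%), 1 for Liriopis seu Ophiopogonis Tuber (4.09%), 6 for Schisandrae Fructus (50.1%), 3 for Longan Arillus (15.9%) and 1 for Zizyphi Semen (13.3%). ALDH1A3 is among them in each of the 6, higher in 5 and lower in Soshiho-tang. Its call for Liriopis seu Ophiopogonis Tuber ended without vehicle library 2 (0.15) or 3 (0.16) or high-dose library 1 (0.13) or 2 (0.15), and that for Yijin-tang without vehicle library 2 (0.13). With no low-count filter both of these calls ended as well (0.18 and 0.17). For Longan Arillus the call of DHRS3 ended without high-dose library 3 (0.27), and that of RXRA without any 1 vehicle library or high-dose library 2 or 3 (-0.16 to -0.12). The RXRA call also ended with no low-count filter (-0.12) or only the libraries compared (-0.14). For Schisandrae Fructus the call of RARA ended without high-dose library 1 (-0.14) or with no low-count filter (-0.13). For Yijin-tang that of RARA ended without high-dose library 3 (-0.18).

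**Figure D3:**
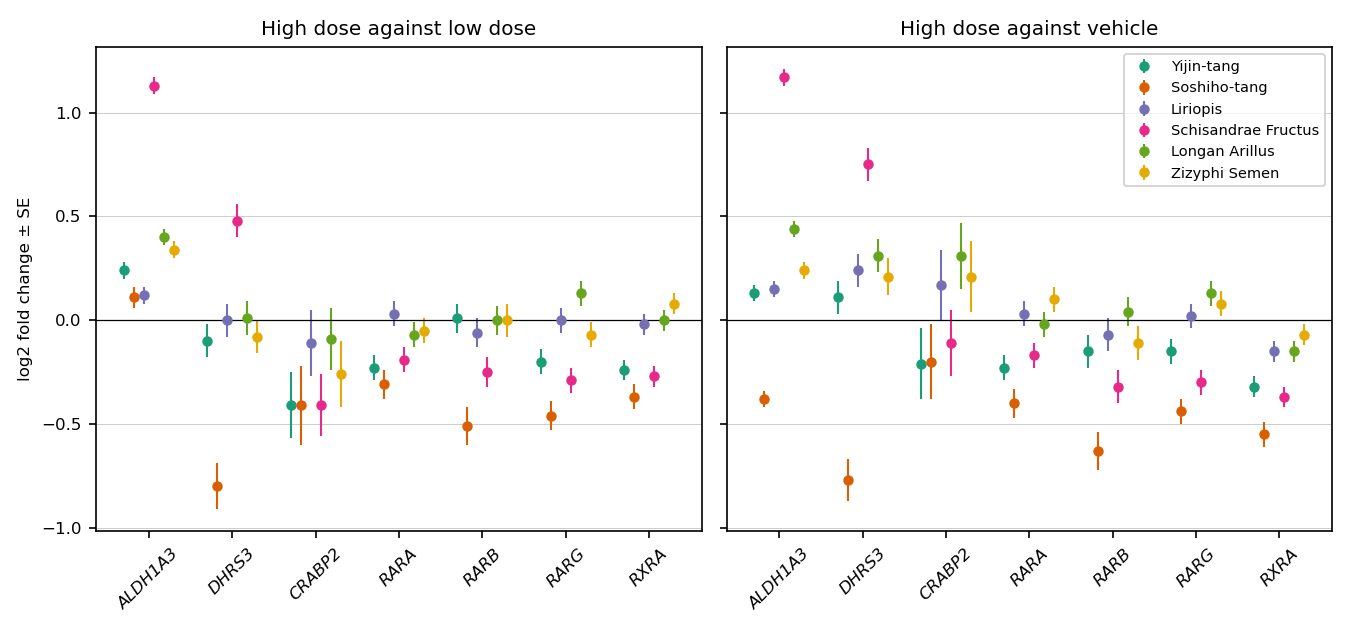
Log2 fold change with its standard error (vertical axis) of the 7 genes that passed the filter on low counts (horizontal axis) at high dose, for the 6 replicated extracts in colour, against the low dose of the same extract (left) and against vehicle (right). ALDH1A3 after Schisandrae Fructus is the highest point in both panels (1.13 and 1.17), and DHRS3 after Soshiho-tang is the lowest (-0.80 and -0.77).

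Soshiho-tang and Yijin-tang share a solvent, 3 doses and a library set, and so do Longan Arillus and Zizyphi Semen. Each of these differences is the difference of 2 of the values against vehicle that the choice of genes rested on, so for the chosen genes it is again a description with no test. ALDH1A3 was lower after Soshiho-tang than after Yijin-tang at every dose. The log2 differences were -0.51 ± 0.04 at high, -0.67 at medium and -0.39 at low dose, and all Soshiho-tang libraries lay below all Yijin-tang libraries. DHRS3 differed by -0.88 ± 0.10 at high dose, by -0.34 ± 0.09 at medium dose and by -0.18 at low dose.

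The receptors lay in the same direction at high dose. RARB differed by -0.48 ± 0.08 between Soshiho-tang and Yijin-tang, RARG by -0.29 ± 0.06, RXRA by -0.23 ± 0.06 and RARA by -0.17 ± 0.07. CRABP2 differed by 0.01, with a 95% interval of -0.35 to 0.38. At the threshold used above, 5 of 7 were called at high dose, where 21.9% of all genes were, 1 at medium dose (0.532%) and 1 at low dose (0.118%), and nothing is read from these counts.

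Between Longan Arillus and Zizyphi Semen, ALDH1A3 was higher after Longan Arillus at high dose by log2 0.21 ± 0.04, in all 3 against all 3 libraries. At medium dose the difference was 0.12 with a 95% interval of 0.04 to 0.2, and at low dose 0.15 with an interval of 0.07 to 0.23. DHRS3 differed by 0.11 at high dose. In edgeR 1 of 7 was called at high dose (10.4% of all genes), and none at medium (0.0056%) or low dose (0%), against 2 and 3 at an unadjusted p under 0.05.

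The rest of the pathway was followed in a list of 53 genes outside the 9, of which 38 passed the filter. That list was also chosen with earlier results of these data known. Adjusted p-values of its genes are therefore a description and no independent evidence. From low to high dose 11 of 38 passed edgeR's test in Soshiho-tang, 3 higher and 8 lower, and 21 in Schisandrae Fructus, 4 higher and 17 lower. The medians over the list were -0.11 and -0.20, against 0 over all genes. The shares of all genes called in these 2 comparisons were 18.6% for Soshiho-tang and 45.9% for Schisandrae Fructus. The counts were 3 in Yijin-tang (7% of all genes), 0 in Liriopis seu Ophiopogonis Tuber (0%, with 1 at an unadjusted p under 0.05), 2 in Longan Arillus (0.936%) and 3 in Zizyphi Semen (5.78%).

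STRA6, the retinol uptake receptor, fell at the high dose of both extracts. It went from 80.7 ± 0.91 to 56.9 ± 4.64 CPM (SD, n = 2 each) in Soshiho-tang (log2 -0.51 ± 0.06 SE, edgeR adjusted p 6.8e-09) and from 85.7 ± 1.97 to 48.6 ± 0.71 CPM (n = 3 each) in Schisandrae Fructus (-0.82 ± 0.05, adjusted p 6.34e-18). Of the 4 uptake and storage genes tested it was the 1 called in each. RDH10, the main retinol dehydrogenase of the embryo, fell from 36.4 to 24.7 CPM in Soshiho-tang (-0.56 ± 0.06, adjusted p 5.75e-10). RDH11, a retinaldehyde reductase, rose from 99.3 to 128 CPM (0.36 ± 0.04, adjusted p 1.06e-08). Of the 8 oxidoreductases tested, 2 were called higher and 1 lower in Soshiho-tang, and 2 higher and 5 lower in Schisandrae Fructus. The shares over all genes were 9.92% higher and 8.66% lower in Soshiho-tang, and 22.3% and 23.6% in Schisandrae Fructus. In the latter RDH10 and ADH5 lost their calls without high-dose library 2 (-0.10 and -0.16), RDH10 also without low-dose library 2 (-0.11), ADH5 also without low-dose library 1 (-0.13) or high-dose library 3 (-0.15), and RDH13 without low-dose library 1 (0.23) or high-dose library 3 (0.20). With no low-count filter RDH10, RDH11 and ADH5 were not called.

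CYP26B1, which breaks down retinoic acid and is induced by it, went in opposite directions in the 2 extracts. It fell from 37.3 ± 2.98 to 19.4 ± 1.66 CPM in Soshiho-tang (-0.94 ± 0.10, edgeR adjusted p 2.88e-10) and rose from 37.9 ± 1.11 to 45.7 ± 3.42 CPM in Schisandrae Fructus (0.26 ± 0.07, adjusted p 0.00321). The difference between these 2 effects was not tested. Of the other retinoic acid read-outs, DHRS3 had the same sign as CYP26B1 in each of these extracts, whereas RARB was lower in both. In the single Polygalae Radix library at high dose DHRS3 stood at 2.58-fold the low dose and CYP26B1 at 0.827-fold. CYP26A1 and CYP26C1 did not pass the filter.

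CYP1B1, a target of the aryl hydrocarbon receptor that can also oxidise retinol, fell at the high dose of Soshiho-tang from 64.1 to 34.2 CPM (-0.91 ± 0.09, edgeR adjusted p 1.96e-11) and at that of Schisandrae Fructus from 129 to 93.2 CPM (-0.48 ± 0.07, adjusted p 6.22e-08). In vehicle it stood at 122 ± 11.1 CPM (n = 3), and the low dose of Soshiho-tang already lay below it (-0.94, adjusted p 4.96e-11). Between medium and low dose of Soshiho-tang it was the 1 gene of the 38 called (-0.47), a call that ended without any 1 of the 4 libraries (-0.51 to -0.43).

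Among 13 responsive genes tested, 1 was called higher and 4 lower in Soshiho-tang, and 1 higher and 6 lower in Schisandrae Fructus. Of all genes, 9.92% were called higher and 8.66% lower in Soshiho-tang, and 22.3% and 23.6% in Schisandrae Fructus. HOXA2 lost its call in Soshiho-tang without high-dose library 3 (-0.60) or low-dose library 3 (-0.57), and RARRES2 in Schisandrae Fructus without high-dose library 1 or 3 or any low-dose library (-0.39 to -0.27). MEIS2, a homeobox cofactor induced by retinoic acid in limb and nerve cells, fell from 51.5 to 29.6 CPM in Soshiho-tang (-0.80 ± 0.06, edgeR adjusted p 2.49e-13) and from 51.5 to 30.9 CPM in Schisandrae Fructus (-0.74 ± 0.05, adjusted p 1.66e-15). MEIS1, its relative, fell from 7.98 to 4.13 CPM in Schisandrae Fructus (-0.95 ± 0.10, adjusted p 3.37e-11). GPRC5A, a receptor first found as a retinoic acid induced gene, fell from 108 to 85.2 CPM there (-0.34 ± 0.05, adjusted p 8.16e-08). BHLHE40, a transcriptional repressor that also answers to hypoxia and the clock, rose from 212 to 294 CPM there (0.47 ± 0.06, adjusted p 3.98e-09). Of 9 coregulators tested, 4 were called lower in Schisandrae Fructus (23.6% of all genes) and none in Soshiho-tang (8.66%). CREBBP, 1 of the 4, lost its call without high-dose library 2 or 3 or any low-dose library (-0.41 to -0.31). RXRB, the 1 other receptor tested, was called in neither.

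**Figure D4:**
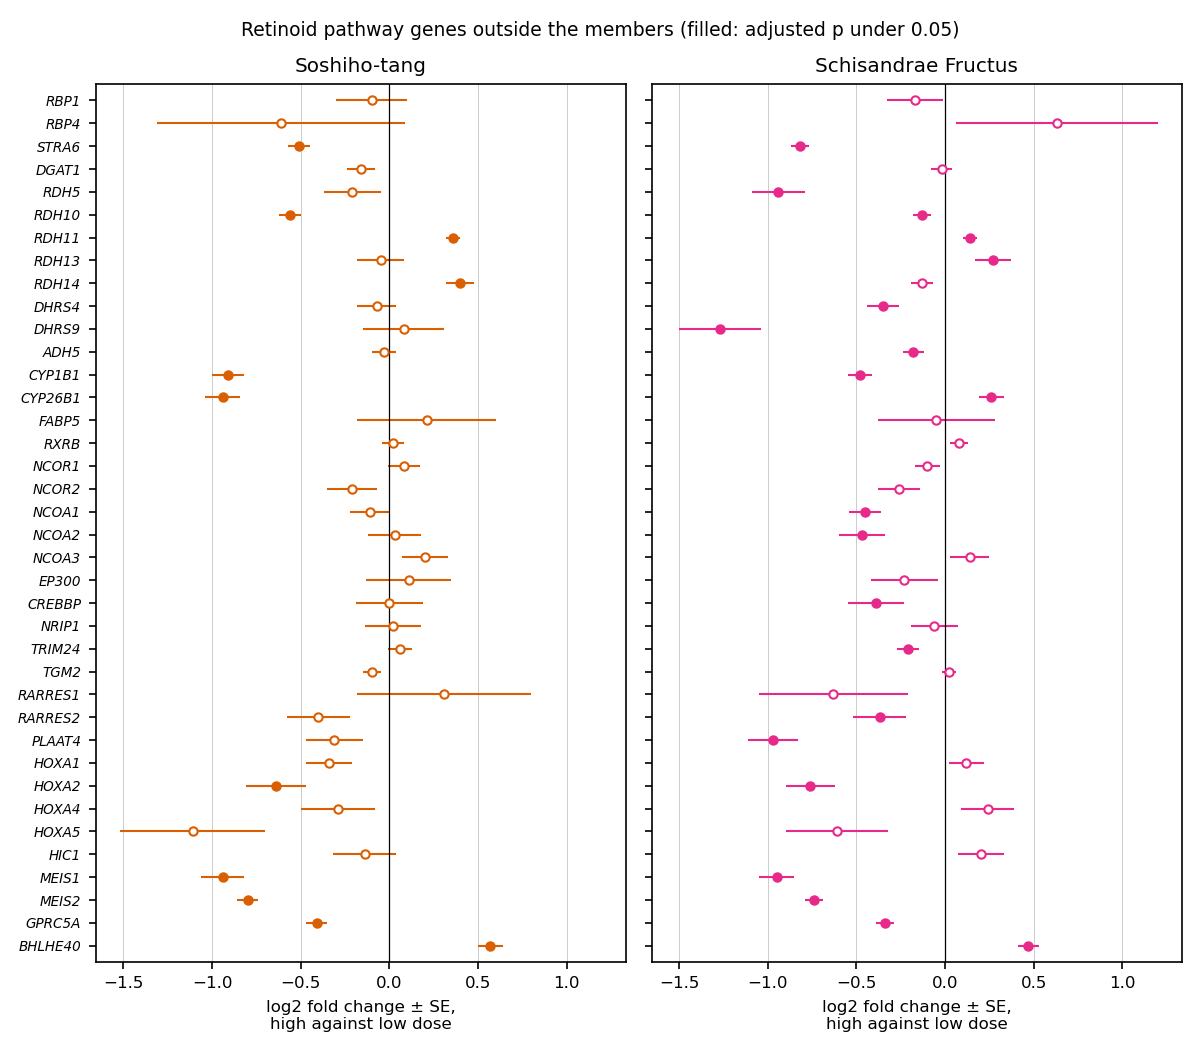
Log2 fold change with its standard error (horizontal axis) from low to high dose for the 38 tested retinoid pathway genes outside the 9 (vertical axis), for Soshiho-tang (left) and Schisandrae Fructus (right); filled points passed the threshold. STRA6, MEIS1, MEIS2 and CYP1B1 lie left of 0 in both panels, and CYP26B1 lies left of 0 on the left (-0.94) and right of 0 on the right (0.26).

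In the remaining replicated extracts at most 3 of the 38 were called, and most of those calls were small. The shares of all genes called were 7% in Yijin-tang, 0.936% in Longan Arillus and 5.78% in Zizyphi Semen. Yijin-tang had BHLHE40 (0.22) and TGM2 (0.14) higher and MEIS2 (-0.19) lower, and the count fell to 1 without high-dose library 1 or low-dose library 3. Longan Arillus had CYP1B1 higher, at 138 against 109 CPM (0.34 ± 0.07, edgeR adjusted p 0.00238), and TGM2, a transglutaminase strongly induced by retinoic acid in many cells, lower (-0.20). Zizyphi Semen had TGM2 higher (0.16) and RDH11 (-0.13) and MEIS1 (-0.30) lower. MEIS1 lost its call with a replicate block (adjusted p 0.0529) and with DESeq2 (adjusted p 0.0883), and the count was 0 without high-dose library 2, and 1 without low-dose library 1 or low-dose library 3. In the single Polygalae Radix library at high dose TGM2 stood at 88.6 CPM against 622 at low dose, STRA6 at 21.7 against 78.6, and RDH10 at 125 against 39.9. In the Aucklandiae Radix library at high dose CYP1B1 stood at 39.9 CPM against 113 and MEIS2 at 29.2 against 57.1. These differences have no replicate check.

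Between the decoctions at high dose 13 of the 38 passed in edgeR, where 21.9% of all genes did, 3 higher and 10 lower after Soshiho-tang. CYP1B1 stood at 34.2 CPM after Soshiho-tang and 96.6 after Yijin-tang (-1.50 ± 0.08, adjusted p 3.27e-19), CYP26B1 was lower by log2 -1.01 ± 0.09 (adjusted p 3.54e-12) and GPRC5A by -0.65 (adjusted p 6.56e-13). MEIS2 (-0.59), RDH10 (-0.53), STRA6 (-0.47) and MEIS1 (-0.77) were lower too, and RDH11 (0.36) and BHLHE40 (0.36) higher. At medium dose CYP1B1 (-1.11) and GPRC5A (-0.37) were called, and at low dose CYP1B1 (-0.80) and GPRC5A (-0.25); the last call ended without Yijin-tang library 1 (-0.22) or 3 (-0.25) or Soshiho-tang library 2 (-0.30) or 3 (-0.19). Between Longan Arillus and Zizyphi Semen 3 of the 38 were called at high dose, where 10.4% of all genes were: RDH11 (0.13), TGM2 (-0.26) and GPRC5A (-0.25). The call of RDH11 ended without library 2 of Longan Arillus (0.12) or of Zizyphi Semen (0.11). At medium and low dose none was called in edgeR, against 5 and 4 at an unadjusted p under 0.05.

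The genes whose log2 CPM followed ALDH1A3 most closely over the 60 libraries, among 11115 genes with a symbol and a mean of at least 5 CPM, were the carboxypeptidase M gene (symbol CPM, Pearson correlation 0.86), SDHA (0.85), ARHGAP44 (0.84), LINC01119 (0.84) and ALDH1A3-AS1 (0.84). The lowest correlations were those of DUSP10 (-0.82), EVI2A (-0.81) and SLC30A1 (-0.80). The carboxypeptidase M gene stood at 19.8 in CPM units in vehicle, 40.1 after Schisandrae Fructus at high dose, 7.24 in the Polygalae Radix high-dose library and 19.9 after Soshiho-tang at medium dose, where ALDH1A3 was lowest among replicated groups. SDHA, a subunit of succinate dehydrogenase, stood at 105 in those units in vehicle, 144 after Schisandrae Fructus at high dose and 44.3 in the Polygalae Radix library. DUSP10, a phosphatase of stress kinases, stood at 17.8, 7.14 and 43.0 in the same groups. These correlations share libraries, groups and depth and carry no test. Among the 9 genes, correlations with ALDH1A3 were -0.43 for RXRA, -0.21 for RARA, -0.20 for RARG and 0.09 for RARB. Within library sets that of RARB was -0.1.

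ALDH1A3-AS1, a transcript on the opposite strand, overlaps exons of ALDH1A3 by 1585 bases. It stood at 49.0 CPM in vehicle and 93.9 CPM after Schisandrae Fructus at high dose, and its log2 difference from low to high dose was 0.94 ± 0.11 there and 0.48 ± 0.11 in Longan Arillus. The kit keeps strand, but the strand setting of the counting is not given in the sources used here, so reads of ALDH1A3 and its antisense partner cannot be told apart. RARA overlaps RARA-AS1 by 556 bases and RARB overlaps TOP2B by 28 bases in the same way.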

How the data were processed

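RNA of 60 libraries of 25 groups (16 of 3 libraries, 3 of 2 and 6 of 1) was sequenced as paired reads of 100 bp. The deposited table holds the authors' expected counts per gene; the tools named in the submitters' processing notes are FastQC 0.11.9, Trim Galore 0.6.5, STAR 2.7.3a and, for counting, RSEM 1.3.3, with the build hg38. Expected counts share reads between genes, so 10.86% of values were not whole and all were rounded. The strand setting and the release of the annotation were not given in the sources used here. Symbols matched 56558 of 60675 genes.

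One model of 54 libraries (19 replicated groups) was fitted in edgeR 4.0.16 (R 4.3.3, limma 3.58.1) with the trimmed mean of M values, the default expression filter by group (17851 genes) and the quasi-likelihood F test, with no replicate block. Adjusted p-values are Benjamini-Hochberg values over all genes of a comparison, with a threshold of 0.05. The SE is the absolute log2 fold change divided by the square root of F. CPM were scaled over all 60 libraries, and log2 CPM used a prior count of 2. The fit was tested on simulated data. Groups of 1 library had no test. Counting error weighs most for ALDH1A1, ALDH1A2 and CRABP2, the genes of lowest count. It is as large as the spread between libraries in some groups of each of the other chosen genes. No 2 libraries of a group were copies in 51 pairs checked (chi-square per degree of freedom 2.24 to 55.64).

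The 9 genes, the pathway list, the other aldehyde dehydrogenases and the tests were chosen with earlier results of these data known. Named in the text were all 9 genes and the 5 genes most and 3 least correlated with ALDH1A3. At most the 6 pathway genes of lowest adjusted p per high against low comparison with at least 1 CPM were named, with their values in other comparisons. Further pathway genes were named where a call ended in an alternative (HOXA2, RARRES2, CREBBP, RDH13 and ADH5). CYP26A1, CYP26C1 and RXRB were named as the rest of their roles. Genes of the single libraries and the aldehyde dehydrogenases were chosen after their values were seen. Alternatives were the DESeq2 1.42.0 Wald test and size factors, no low-count filter, only the libraries compared, a replicate block, plain totals and each library left out.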

Additional observations from a re-analysis of the deposited data

How the results depend on the processing

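No called value of the 7 genes changed direction with DESeq2, other size factors, no low-count filter, only the libraries compared, the block or a library left out. In 145 cases an uncalled value changed sign; its value with all libraries was at most 0.11 in size, and the alternatives reached -0.29 (CRABP2, Longan Arillus against Zizyphi Semen at medium dose, 0.01 with all libraries, without Longan Arillus library 3). With plain totals in place of scaled ones, 14 of 171 group levels moved by more than their SD, such as ALDH1A3 in vehicle to 574 CPM. Of 252 values (7 genes in 36 comparisons), those on the same side of the threshold numbered 248 with the DESeq2 Wald test, 251 with DESeq2's size factors, 239 with no low-count filter and 242 with only the libraries compared. ALDH1A3 in Soshiho-tang from low to high dose ranged from 0.06 to 0.17 with 1 library left out. From low to medium dose it was -0.27 with no low-count filter, and -0.30 to -0.26 with 1 library left out, all no longer called. The count of called pathway genes from low to high dose in Yijin-tang was 6 with only the libraries compared and 1 to 3 with 1 library left out. In Longan Arillus it was 1 with no low-count filter and 0 with only the libraries compared. In Zizyphi Semen it was 1 with no low-count filter, 0 with only the libraries compared and 0 to 3 with 1 library left out. With 1 library left out the count was 17 to 20 in Schisandrae Fructus. Over the alternative tests the share of all genes called from low to high dose moved too. It was 2.77% to 9.67% in Yijin-tang and 20.4% to 46.6% in Schisandrae Fructus. In Longan Arillus the share was 0.05% to 1.13%, and in Zizyphi Semen 1.79% to 6.46%. The cause of these shifts was not tested. With the replicate number as a replicate block, 249 of 252 values kept their side and 3 became called, among them RARA in Soshiho-tang against Yijin-tang at high dose (-0.17); of the pathway genes called from low to high dose, MEIS1 in Zizyphi Semen (-0.30) lost its call. Same-numbered libraries deviated together in 2 of 10 comparisons with a low dose, so the numbers were not taken to pair them. Leaving out a Soshiho-tang library leaves 1 in its arm, whose spread is then assumed to be that of the other groups.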

Other observations

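Of 14 other aldehyde dehydrogenase genes, which do not make retinoic acid or do so little, 13 passed the low-count filter. They too were chosen with earlier results known, so their p-values are a description and no independent evidence. From low to high dose of Schisandrae Fructus 9 of 13 passed edgeR's quasi-likelihood test, 6 higher and 3 lower, where 45.9% of all genes did. ALDH18A1, which starts proline synthesis, rose from 118 to 166 CPM (log2 0.49, adjusted p 1.4e-14), ALDH6A1, of valine breakdown, from 24.1 to 33.5 CPM (0.47) and ALDH3A1 from 1.24 to 2.78 CPM (1.18). ALDH7A1 fell (-0.21). The calls of ALDH5A1 and ALDH16A1, both lower, ended with some libraries left out: ALDH5A1 without high-dose library 2 (-0.36) or low-dose library 2 (-0.31), ALDH16A1 without high-dose library 1 (-0.20) or low-dose library 2 (-0.16).

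ALDH1L2, a mitochondrial enzyme of folate metabolism, rose at the high dose of both extracts in which all 4 receptors were lower. It rose from 19.8 to 55.9 CPM in Soshiho-tang (log2 1.49 ± 0.15 SE, 2 against 2 libraries, edgeR adjusted p 4.78e-11) and from 22.5 to 40.9 CPM in Schisandrae Fructus (0.86). At high dose it was higher after Soshiho-tang than after Yijin-tang by 1.25 (adjusted p 9.06e-11). In Soshiho-tang 3 of 13 were called, where 18.6% of all genes were: besides ALDH1L2, ALDH1B1 fell (-0.34), and ALDH3B1 (-0.26) was called lower but not without high-dose library 3 (-0.23) or low-dose library 3 (-0.19). None of the 13 was called from low to high dose in Yijin-tang, Liriopis seu Ophiopogonis Tuber, Longan Arillus or Zizyphi Semen by edgeR, against 3, 0, 3 and 3 at an unadjusted p under 0.05. In the single Polygalae Radix library at high dose ALDH2 stood at 2.89 CPM against 14.6 at low dose, with no replicate check.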
